A study of Mus musculus with 6 samples.

Results

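A set of 10 genes of early inflammatory signalling was followed in the mouse hippocampus 24 h after traumatic brain injury (TBI). They were chosen by symbol, as cytokines, receptors and feedback inhibitors, and they make up 10 of the 52550 genes listed. Il1a, Il1b, Il18 and Tnf encode cytokines, Il1rn encodes the secreted antagonist of the interleukin-1 (IL-1) receptor, Il1r1, Tnfrsf1a and Tnfrsf1b encode receptors, and Tnfaip3 and Nfkbia encode inhibitors of the transcription factor NF-kB. All 10 were found in the deposited tables.

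IL-1 and tumour necrosis factor (TNF) are released early after tissue damage, in brain chiefly by microglia and other myeloid cells. Their receptors recruit adaptor proteins and ubiquitin ligases that switch on the IKK kinase, which marks the inhibitor IkB-alpha for destruction and lets NF-kB enter the nucleus. NF-kB then switches on cytokine and chemokine genes and, at the same time, its own inhibitors, among them IkB-alpha (Nfkbia) and A20 (Tnfaip3), so that the signal ends itself.

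The study used male mice of 8 to 10 weeks, given as C57BL / 6 in the labels and C57B6/J in the methods, with no engineered allele named in either group. Animals of the TBI group received a controlled cortical impact of moderate severity through a craniotomy over the right parietal bone, and sham animals went through the same anaesthesia and craniotomy without the impact. Both groups thus had an opened skull and differed by the impact. Hippocampi were taken 24 h after surgery, and each of the 3 sham mice (libraries Sham1, Sham2 and Sham3) and 3 TBI mice (libraries TBI1, TBI2 and TBI3) gave 1 library, made from extracted total RNA. The paper describes exposing the hippocampus of both sides and speaks of whole hippocampus, but does not say whether the sides were pooled. In such bulk tissue, fewer cells of a type and less RNA per cell cannot be told apart.

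The estimated counts summed to between 31630936 and 41771872 per library. Levels are given below as CPM, counts scaled by library total and TMM factor to a common size, and a positive log2 fold change means a higher level in TBI. Sham2, TBI1 and TBI3 stood apart, with 392, 307 and 246 of the tested genes highest in them and more than 2 times the next library, against 24 to 53 genes in each of the other 3. Sham2 held the highest summed level of 8 reactive astrocyte markers, 4940 CPM against 715 and 718 CPM in Sham1 and Sham3 and 637 to 1760 CPM in TBI. Of these 8 markers 7 were highest in Sham2, and Gfap, the main intermediate filament of astrocytes, stood at 4050 CPM there. The library labelled Sham2 thus stood above each TBI library in the sum of markers that rise in injured tissue, and whether its label and dissection are as given was not tested. Each sham mean and fold change below includes it unless stated. TBI1 held 3690 CPM of 6 striatal neuron markers against 131 to 181 CPM in the other 5 libraries, and the hippocampal markers Fibcd1, at 13.1 CPM, and Dsp, at 1.10 CPM, were lowest in it. The 7 hippocampal neuron markers together lay at 714 to 880 CPM in sham and 606 to 835 CPM in TBI. In TBI1 this sum was carried by Wfs1, at 276 CPM, and Calb1, at 215 CPM, while Prox1, Neurod6 and Zbtb20 were also lowest there, so the markers of this library went in part against its label. In TBI3 Calb1 stood at 493 CPM against 111 to 215 CPM elsewhere. The 6 choroid plexus markers summed to 50.1 CPM in Sham2, 239 CPM in TBI1 and 258 CPM in TBI3, against 2020 to 2350 CPM in the remaining libraries. Results are given with and without Sham2, and for the 10 genes also without TBI1 or TBI3 where they decide a direction or size.

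The sequences around the start sites are shown because NF-kB is known to act through kappaB sites close to its target genes. RefSeq promoters on GRCm38.p6, from 250 bases before to 50 bases after each start, were available for all 10 genes, 14 promoters in all. The 10-base kappaB consensus, searched on both strands, was found in 4.51% of all 32851 promoters of this length and in 3 of the 14. They belong to Nfkbia, Tnfaip3 and Il1r1, and each is printed 5′ to 3′ on the gene strand with the matching bases in capitals. The promoter of Il1b is set beside them as that of a ligand with 0 matches.
Nfkbia promoter, chr12:55492598-55492897, minus strand: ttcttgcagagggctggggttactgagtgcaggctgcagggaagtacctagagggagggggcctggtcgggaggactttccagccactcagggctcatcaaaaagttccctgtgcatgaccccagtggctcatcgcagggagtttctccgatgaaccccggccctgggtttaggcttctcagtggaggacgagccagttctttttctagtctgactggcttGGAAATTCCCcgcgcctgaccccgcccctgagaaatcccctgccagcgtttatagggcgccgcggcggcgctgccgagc
Tnfaip3 second promoter, chr10:19015361-19015660, minus strand: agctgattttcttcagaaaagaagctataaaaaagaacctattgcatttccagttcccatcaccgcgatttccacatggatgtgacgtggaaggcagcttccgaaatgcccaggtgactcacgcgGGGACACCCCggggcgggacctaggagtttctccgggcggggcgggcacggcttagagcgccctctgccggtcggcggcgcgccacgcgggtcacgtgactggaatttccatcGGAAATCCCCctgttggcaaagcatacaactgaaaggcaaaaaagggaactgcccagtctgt
Il1r1 second promoter, chr1:40266336-40266635, plus strand: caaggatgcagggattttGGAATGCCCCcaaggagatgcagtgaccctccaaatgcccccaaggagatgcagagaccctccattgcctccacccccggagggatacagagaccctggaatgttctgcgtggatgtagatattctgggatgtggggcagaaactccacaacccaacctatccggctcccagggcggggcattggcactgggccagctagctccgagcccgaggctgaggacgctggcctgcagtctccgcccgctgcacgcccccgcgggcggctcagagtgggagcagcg
Il1b promoter, chr2:129371090-129371389, minus strand: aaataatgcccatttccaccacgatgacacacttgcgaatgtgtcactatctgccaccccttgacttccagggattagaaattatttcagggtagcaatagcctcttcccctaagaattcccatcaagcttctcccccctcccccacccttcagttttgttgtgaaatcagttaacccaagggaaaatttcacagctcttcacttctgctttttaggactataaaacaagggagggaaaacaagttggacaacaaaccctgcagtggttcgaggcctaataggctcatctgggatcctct

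The match of Nfkbia spans bases -29 to -20 before its start, and those of Tnfaip3 span bases -125 to -116 and -12 to -3. The match of Il1r1 lies farther out, at bases -232 to -223. The matches do not overlap one another. The TATA element TATAAA, searched on the gene strand and held by 8.32% of all promoters, occurs in the promoters of Il1a, Il1b and Tnf and in the second promoter of Tnfaip3. A match describes the letters in the window and was not tied to binding by any measurement here, and no match says only that these letters are absent from 300 bases.

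None of the 10 genes was called between TBI and sham. A call asked for an unadjusted p below 0.05, an adjusted p below 0.1 and a change of more than 1.5-fold in either direction, and by edgeR 0 of the 10 and 0 of all 18795 genes tested (0.0%) met it. Of the 10, 8 passed the filter on low counts, and Tnf and Il1rn did not. An unadjusted p under 0.05 was reached by 0 of these 8, while 806 of all genes tested (4.29%) reached it. DESeq2 with its defaults called 46 of 20786 genes (0.221%), and 0 of the 9 genes of the set that it gave an adjusted p. Of these 9, 0 had an unadjusted p under 0.05 with DESeq2, against 4.11% of all genes with a p, and Il1rn was given none. Among the 8 tested genes 3 had a positive and 5 a negative log2 fold change, with a median of -0.20 against 0.01 for all genes tested. Levels are shown for each library, since for 1 gene in 3 against 3 mice the smallest p of an exact permutation test is 0.1.

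Sham2 was the highest of the 6 libraries for 7 of the 10 genes and for 5 of the 8 that were tested, against 23.7% of all genes tested. It exceeded the next library more than 2 times for 4 of the 10, namely Il1b, Il1rn, Tnf and Il1r1, of which Il1b and Il1r1 were tested, against 2.09% of all genes tested. Without Sham2, 6 of the 8 tested genes had a positive and 2 a negative log2 fold change, with a median of 0.51 against 0.03 for all genes. The log2 fold changes of Il1a, Il1b and Tnfrsf1a changed sign in this way. Sham2 was the highest library for each of them, and leaving it out, a choice made after seeing the data, raises such values by construction. Again 0 of the 8 reached an unadjusted p under 0.05, against 3.39% of the 19298 genes then tested. The reactive astrocyte markers moved with Sham2 as given above, and their part in these levels was not tested.

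**Figure D1:**
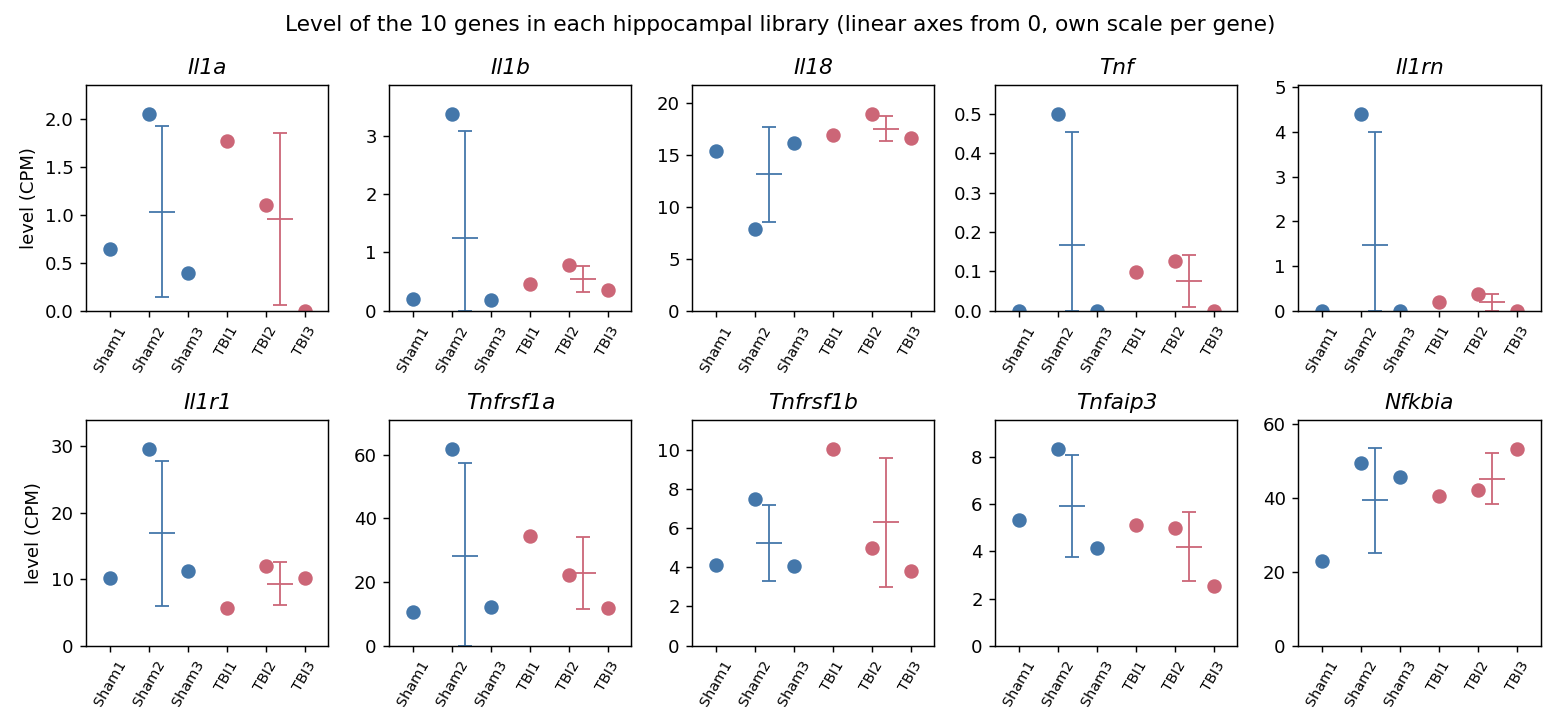
Level (CPM, linear axis from 0, own scale per gene) of the 10 genes in each library, with sham in blue and TBI in red. Points are single libraries and the bars give mean and SD over the 3 libraries of a group, with bars that would pass below 0 ending at 0. Sham2 is the highest point in 7 of the 10 panels, and only for Il18 do all 3 TBI points lie above all 3 sham points.

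Il1b encodes IL-1 beta, the secreted IL-1 that needs cleavage by caspase-1, and lies on the minus strand of chromosome 2 from 129364570 to 129371139 (GRCm38). The sham libraries, in their order, held 8, 135 and 7 counts of it and the TBI libraries held 19, 25 and 13. In CPM these were 0.198, 3.36 and 0.182 in sham and 0.465, 0.790 and 0.365 in TBI. A single sham library was thus above all others, 4.26 times the next, while the 3 TBI libraries lay between it and the 2 remaining sham libraries. Sham averaged 1.25 ± 1.83 CPM (SD, n = 3), and TBI averaged 0.540 ± 0.222 CPM (SD, n = 3). This gave a log2 fold change of -1.21 (standard error 1.17, 95% interval -4.00 to 1.58) and an adjusted p of 0.982 from edgeR. Without Sham2 it was 1.49 (95% interval -0.23 to 3.21), with an unadjusted p of 0.0784 from edgeR, and the mean TBI level was 2.84 times that of Sham1 and Sham3. All 3 TBI libraries exceeded Sham1 and Sham3 for 2 of the 8 tested genes, Il1b and Il18, and for 10.1% of all genes tested.

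Il1a encodes IL-1 alpha, which is active without such cleavage and acts as an alarm signal of damaged cells. It lies near Il1b, on the minus strand of chromosome 2 from 129299610 to 129309972. Its counts were 26, 82 and 15 in the sham libraries and 72, 35 and 0 in the TBI libraries. The levels were 0.642, 2.04 and 0.391 CPM in sham and 1.76, 1.11 and 0.0 CPM in TBI, where TBI3 is listed at 0. The groups overlapped, with Sham2 and TBI1 high and TBI3 low. The means were 1.03 ± 0.891 CPM (SD, n = 3) and 0.957 ± 0.891 CPM (SD, n = 3), and the log2 fold change was -0.10 (95% interval -3.17 to 2.98, adjusted p = 0.996 from edgeR). It was 0.89 without Sham2, 0.49 without TBI3 and -0.90 without TBI1, so its sign and size rest on single libraries. Exons of Il1a share 222 bases with Gm14023 on the opposite strand and those of Il1b share 25 bases with the antisense gene Il1bos. These partners had counts of 0 to 20 and 0 to 12, and since the strandedness of the libraries is not stated, reads could not be assigned between them.

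Il18 encodes IL-18, another cytokine matured by caspase-1, and lies on the plus strand of chromosome 9 from 50554827 to 50581840. It was the only one of the 10 whose groups did not overlap, while 10.2% of all genes tested had no overlap in either direction. Its levels were 15.4, 7.83 and 16.1 CPM in sham and 16.9, 18.9 and 16.6 CPM in TBI. All 3 TBI libraries were above all 3 sham libraries, as for 897 of all genes tested (4.77%), but the lowest TBI library was only 1.03 times the highest sham library. Sham2 was the low library here, at 0.498 times the mean of the other sham libraries, the opposite of its place for the other cytokines. Sham averaged 13.1 ± 4.58 CPM (SD, n = 3), and TBI averaged 17.5 ± 1.23 CPM (SD, n = 3). The fitted log2 fold change of Il18 was 0.41 (standard error 0.287, 95% interval -0.27 to 1.10), with an adjusted p of 0.982 from edgeR. Without Sham2 it was 0.15 (95% interval -0.23 to 0.53), an interval that holds no 1.5-fold change in either direction.

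Tnf encodes TNF and lies on the minus strand of chromosome 17 from 35199381 to 35202007. It was close to the floor of the data, with counts of 0, 20 and 0 in sham and 4, 4 and 0 in TBI. In CPM it reached 0.498 in Sham2 and 0.126 in TBI2, the highest TBI library, and 3 of the 6 libraries listed it at 0. On the 28289 genes with at least 1 count in any library, where it could be fitted, the log2 fold change was -1.13 (95% interval -6.03 to 3.78, adjusted p = 0.963 from edgeR). It was -0.56 without TBI3 and -1.70 without either Sham1 or Sham3. The interval spans both directions widely, so no direction can be given for Tnf.

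Il1rn encodes the natural antagonist that occupies the IL-1 receptor without activating it, and lies on the plus strand of chromosome 2 from 24336853 to 24351494. Its counts were 0, 176 and 0 in sham and 8, 12 and 0 in TBI. Nearly all of its signal came from Sham2, at 4.39 CPM, which was 11.6 times the next library, TBI2 at 0.379 CPM. TBI1 stood at 0.196 CPM, and Sham1, Sham3 and TBI3 were listed at 0. Fitted on the genes with at least 1 count in any library, the log2 fold change was -2.93 (95% interval -8.17 to 2.31, adjusted p = 0.803 from edgeR). It was -3.82 without TBI2 and -2.35 without TBI3. With Sham2 left out, all remaining sham libraries of Il1rn and Tnf were at 0, so no fold change is given. In Sham2 the 12 neutrophil and monocyte markers were also highest in sum, 26.6 CPM against 5.93 and 9.66 CPM in the other sham libraries and 8.99 to 16.8 CPM in TBI. Of the 7 tested markers of this list 3 were highest in Sham2. S100a9 stood at 7.43 CPM and S100a8 at 6.68 CPM in Sham2, against at most 3.07 and 4.42 CPM elsewhere. Csf3r, the one with the highest mean CPM over the 6 libraries, stood at 3.64 CPM there and 6.83 CPM in TBI1, and Ly6g, the defining neutrophil marker, at 0.224 CPM in Sham2 and at 0 elsewhere. Their part in the level of Il1rn was not tested.

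Il1r1 encodes the receptor that transmits the IL-1 signal and lies on the plus strand of chromosome 1 from 40225080 to 40317257. Its levels were 10.1, 29.5 and 11.2 CPM in sham and 5.71, 11.9 and 10.2 CPM in TBI. Sham2 was 2.47 times the next library, and TBI1 was the lowest. Sham averaged 16.9 ± 10.9 CPM (SD, n = 3), and TBI averaged 9.28 ± 3.22 CPM (SD, n = 3). The log2 fold change of -0.87 (standard error 0.489, 95% interval -2.04 to 0.30) was the farthest from 0 relative to its error among the 8 genes, with an unadjusted p of 0.121 and an adjusted p of 0.982 from edgeR. Without Sham2 it was -0.20 (95% interval -1.03 to 0.64), and without both Sham2 and TBI1 it was 0.055 (95% interval -0.46 to 0.57).

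Tnfrsf1a encodes TNF receptor 1, the broadly expressed receptor that carries the death domain, and lies on the plus strand of chromosome 6 from 125349362 to 125362484. Its levels were 10.4, 61.7 and 12.1 CPM in sham and 34.4, 22.3 and 11.7 CPM in TBI. Sham2 was 5.48 times the mean of the other sham libraries, and TBI1 and TBI2 lay between it and the rest, while TBI3 lay at the level of Sham1 and Sham3. Sham averaged 28.1 ± 29.1 CPM (SD, n = 3), and TBI averaged 22.8 ± 11.4 CPM (SD, n = 3). This gave a log2 fold change of -0.30 (standard error 0.752, 95% interval -2.10 to 1.50) and an adjusted p of 0.985 from edgeR. Without Sham2 it was 1.02 (95% interval -0.10 to 2.13), with an unadjusted p of 0.0672 from edgeR, and without TBI3 it was 0.017. Without both Sham2 and TBI1 it was 0.59 (95% interval -0.27 to 1.45). Reactive astrocyte markers stood in a like order, at 4940 CPM in Sham2, 1760 CPM in TBI1, 1410 CPM in TBI2 and 637 to 718 CPM in the remaining libraries. Their part in the level of Tnfrsf1a was not tested.

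Tnfrsf1b encodes TNF receptor 2, which lacks a death domain and is found on immune, glial and endothelial cells, and lies on the minus strand of chromosome 4 from 145213463 to 145246870. Its levels were 4.12, 7.45 and 4.06 CPM in sham and 10.02, 4.99 and 3.82 CPM in TBI. TBI1 and Sham2 were high, and the other 4 libraries lay between 3.82 and 4.99 CPM. The means were 5.21 ± 1.94 CPM (SD, n = 3) and 6.28 ± 3.29 CPM (SD, n = 3). The log2 fold change was 0.27 (95% interval -0.79 to 1.33, adjusted p = 0.983 from edgeR), and it was 0.62 without Sham2 and -0.24 without TBI1. The 15 microglia markers summed to 1160 CPM in TBI1 and 788 CPM in Sham2, against 572 to 772 CPM in the other libraries, and none of the 15 was listed at 0 in all libraries. None of the tested markers of this list was highest in Sham2. The part of microglia, or of what the striatal markers of TBI1 stand for, in the level of Tnfrsf1b was not tested.

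Nfkbia encodes IkB-alpha, which holds NF-kB in the cytoplasm and is itself one of its quickest targets. It lies on the minus strand of chromosome 12 from 55489410 to 55492647, and its single kappaB match is shown above. Its levels were 23.0, 49.6 and 45.6 CPM in sham and 40.4, 42.3 and 53.3 CPM in TBI. Sham1 was low and the other 5 libraries lay within 40.4 to 53.3 CPM, whatever their group. Sham averaged 39.4 ± 14.3 CPM (SD, n = 3), and TBI averaged 45.3 ± 6.94 CPM (SD, n = 3). This gave a log2 fold change of 0.20 (standard error 0.295, 95% interval -0.50 to 0.91) and an adjusted p of 0.983 from edgeR. It was 0.40 without Sham2, 0.065 without TBI3 and -0.065 without Sham1. The level of Nfkbia in Sham2 was 1.44 times the mean of the other sham libraries, against 17.7 times for Il1b and 5.48 times for Tnfrsf1a.

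Tnfaip3 encodes A20, a ubiquitin-editing enzyme that switches off the signalling complexes below TNF and IL-1 receptors. It lies on the minus strand of chromosome 10 from 19000910 to 19015657 and carried 2 kappaB matches in its second promoter. Its levels were 5.36, 8.35 and 4.14 CPM in sham and 5.12, 4.99 and 2.53 CPM in TBI. Sham2 was the highest and TBI3 the lowest library, and the other 4 lay between 4.14 and 5.36 CPM. Sham averaged 5.95 ± 2.17 CPM (SD, n = 3), and TBI averaged 4.21 ± 1.46 CPM (SD, n = 3). For Tnfaip3 the log2 fold change was -0.50 (standard error 0.391, 95% interval -1.43 to 0.44) with an adjusted p of 0.982 from edgeR, and it was -0.17 (95% interval -1.13 to 0.78) without Sham2 and -0.24 without TBI3.

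**Figure D2:**
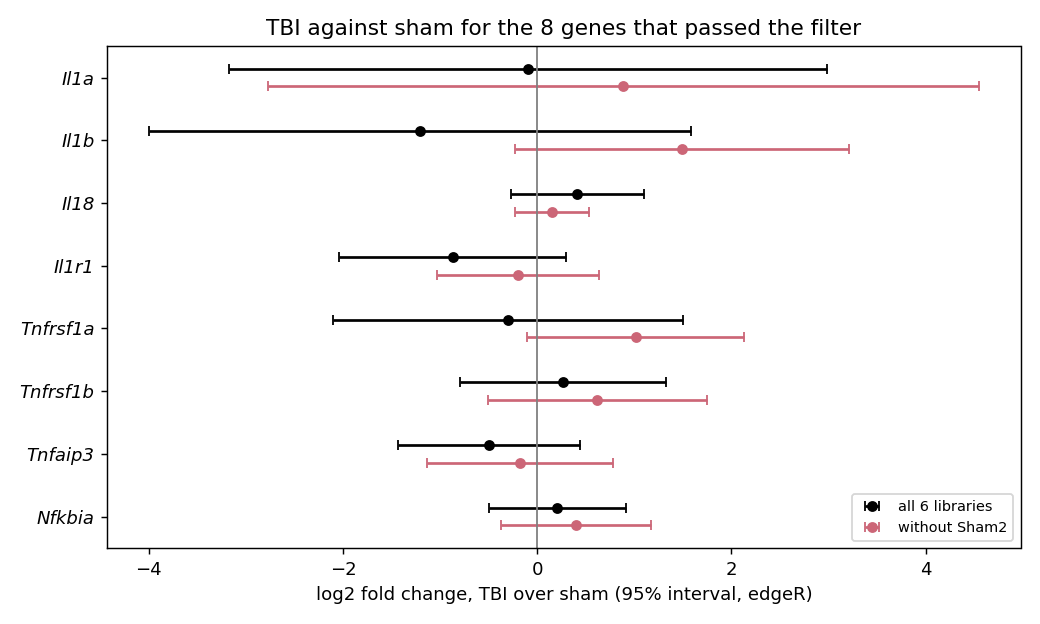
Log2 fold change of TBI over sham (x axis) with its 95% interval from edgeR for the 8 genes that passed the filter, with all 6 libraries in black and without Sham2 in red. Every interval includes 0 in both fits, and the points of Il1a, Il1b and Tnfrsf1a lie on opposite sides of 0 in the 2 fits.

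The levels of the 10 genes were ranked per length, as CPM per kb of annotated exon. In sham the order was Nfkbia with 24.5 ± 8.89 CPM per kb (SD, n = 3), Il18 with 12.7 ± 4.44 and Tnfrsf1a with 10.8 ± 11.2. Il1r1, at 2.66 ± 1.72 CPM per kb, Tnfrsf1b, at 1.37 ± 0.508, and Tnfaip3, at 0.823 ± 0.300, formed the middle. Il1b, at 0.655 ± 0.961 CPM per kb, Il1a, at 0.519 ± 0.451, Il1rn, at 0.264 ± 0.458, and Tnf, at 0.101 ± 0.176, were lowest. Every neighbouring pair in this order overlapped in its range over the 6 libraries, a comparison that does not match values of the same library. Within each of the 6 libraries Tnfrsf1a lay above Il1r1 and Tnfrsf1b above Tnfaip3. The other neighbouring pairs changed order or were equal in part of the libraries. The inhibitor Nfkbia and the ligand Il18 ranged from 14.3 to 33.1 and from 7.59 to 18.3 CPM per kb, while Il1b ranged from 0.0956 to 1.76 CPM per kb and Tnf from 0.0 to 0.304. The sham means rest in part on Sham2. Over Sham1 and Sham3 alone Tnfrsf1a had 4.35 CPM per kb, Il1a 0.262 and Il1b 0.0996, so that Il1a stood above Il1b, and Il1rn and Tnf were listed at 0. With the longest transcript as length, Il1rn and Il1a changed places and the other 8 kept theirs.

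**Figure D3:**
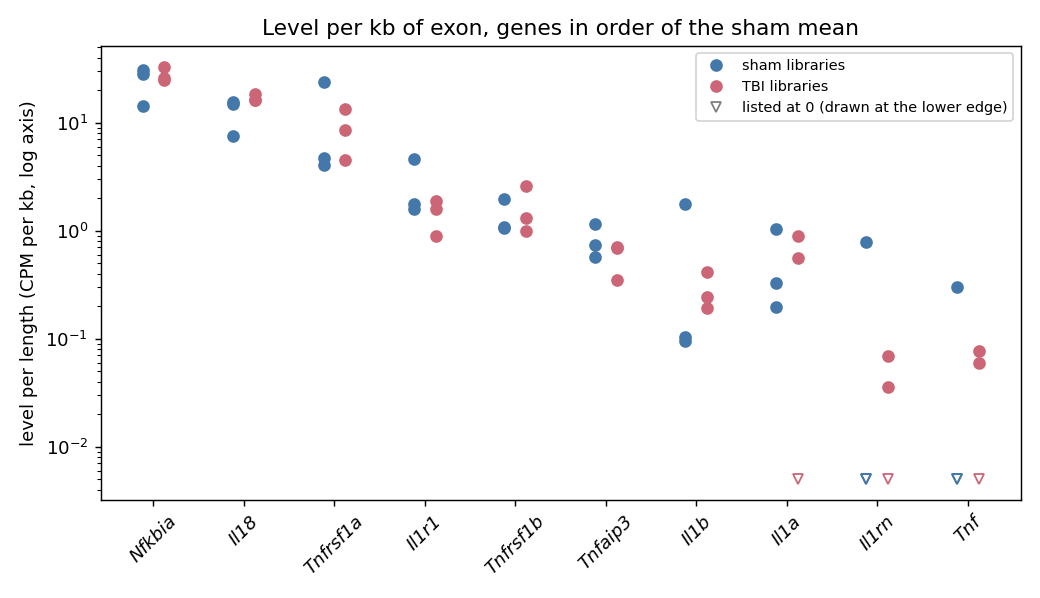
Level per length (CPM per kb of exon, log axis) of the 10 genes in every library, ordered by the sham mean, with sham in blue and TBI in red. Open triangles at the lower edge are libraries in which the gene is listed at 0. Nfkbia and Il18 lie at 7.59 CPM per kb or more in each library, whereas Il1a, Il1rn and Tnf are listed at 0 in at least 1.

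The surrounding pathway was read from 8 lists that hold 125 further genes, of which 105 were tested. Of these 53 had a positive and 52 a negative log2 fold change, with a median of 0.008. The test called 0 of the 105 with edgeR, and DESeq2 with its defaults called 0. An unadjusted p under 0.05 was reached by 3, or 2.86%, below the 4.29% of all genes tested. They were Il1rapl2, an IL-1 receptor accessory-like protein of synapses, with a log2 fold change of 0.88, Tnfrsf21, the death receptor DR6, with -0.40, and Traf3, an adaptor that restrains the alternative NF-kB route, with -0.78. The adjusted p from edgeR was 0.982 for all of them.

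Il1rapl2 stood at 1.90, 1.74 and 2.19 CPM in sham and 4.07, 4.01 and 2.64 CPM in TBI, so the groups did not overlap. Its levels were low throughout. Traf3 stood at 68.9, 65.3 and 83.9 CPM in sham and 26.0, 59.9 and 41.5 CPM in TBI, again without overlap, with TBI1 the lowest. Tnfrsf21 stood at 134, 124 and 122 CPM in sham and 83.5, 116 and 89.2 CPM in TBI. Its groups did not overlap either. Among all genes tested 10.2% had groups without overlap in either direction. These 3 genes were singled out by their unadjusted p, and none of them was highest in Sham2.

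Among the other ligands and receptors of the IL-1 family, 9 of 16 were tested, 4 with a positive and 5 with a negative value and a median of -0.10. Il1rap, the co-receptor that Il1r1 needs to signal, had the smallest p among those with a negative value, with a log2 fold change of -0.24 (unadjusted p = 0.0715 from edgeR) and levels of 63.9 to 73.5 CPM in sham and 55.1 to 58.9 CPM in TBI. Il33, a cytokine released by damaged cells, was at 133 CPM in Sham2 and 66.7 to 94.8 CPM elsewhere. Il18r1, which encodes the ligand-binding chain of the IL-18 receptor and is named after its values were seen, was listed at 0 in all 6 libraries, as were Il1f6, Il1f8 and Il1f10. In the inflammasome list, which holds the machinery that matures Il1b and Il18, 10 of 11 genes were tested, 6 positive and 4 negative, with a median of 0.02. Its leading genes were Aim2, a sensor of cytosolic DNA, with 0.54 (unadjusted p = 0.167 from edgeR), and Casp1, the maturing protease, with -0.31 (unadjusted p = 0.492 from edgeR).

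All 11 adaptors and kinases of the IL-1 and Toll receptors were tested, 6 positive and 5 negative, with a median of 0.09. Traf6, the ubiquitin ligase of this route, had 0.14, and Tollip, which dampens it, had -0.23. Of the TNF superfamily 17 of 22 were tested, 10 positive and 7 negative, with a median of 0.16. Tnfsf13b, the B cell survival factor BAFF, had the smallest p among the positive ones, with 1.30 (unadjusted p = 0.0511 from edgeR), on levels of 0.424 to 0.599 CPM in sham and 0.710 to 2.28 CPM in TBI. The 17 genes of TNF receptor signalling, all tested, were split 10 to 7 with a median of 0.04, and Rbck1, a subunit of the linear ubiquitin ligase, had 0.43 (unadjusted p = 0.0732 from edgeR). Rbck1 stood at 78.2, 64.0 and 80.0 CPM in sham and 129, 85.7 and 84.1 CPM in TBI, with TBI1 the highest.

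Of the 8 NF-kB subunits and IKK genes 4 were positive and 4 negative, with a median of -0.08. Ikbkg, the regulatory subunit of IKK, had 0.32 and Relb, a subunit of the alternative route, had -0.70. Relb stood at 19.4 CPM in Sham2 and 5.65 to 9.55 CPM in the other libraries. The other NF-kB inhibitors and feedback genes were tested for 17 of 18, with 8 positive, 9 negative and a median of -0.01. Tnip2, a partner of A20, had -0.57 (unadjusted p = 0.0597 from edgeR) and Otud7b, another deubiquitinase, had 0.37. The NF-kB target genes, which include chemokines and adhesion molecules, were tested for 16 of 22. They had 5 positive and 11 negative values and the lowest median of the 8 lists, -0.36. Cxcl10, a chemokine, had -2.76 (unadjusted p = 0.150 from edgeR), with 36.7 CPM in Sham2, 0.938 and 0.208 CPM in the other sham libraries and 0.562 to 2.82 CPM in TBI, and Ccl5, another chemokine, had 1.12.

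The place of Sham2 differed between these lists. It was the highest library for 48 of the 105 genes (45.7%), against 23.7% of all genes tested, and more than 2 times the next for 15 (14.3%), against 2.09%. The share was 75.0% for NF-kB target genes (12 of 16) and 62.5% for subunits and IKK genes (5 of 8). It was 20.0% for inflammasome genes (2 of 10) and 27.3% for IL-1 and Toll adaptors (3 of 11). These are counts within 1 library and were given no test.

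**Figure D4:**
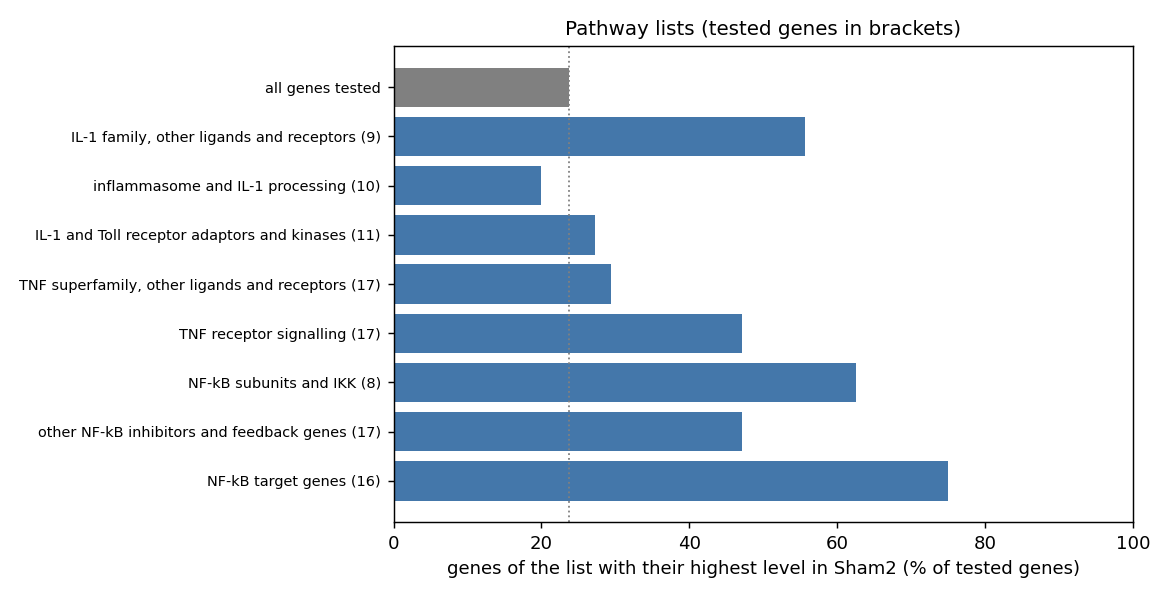
Share of the tested genes of each list whose highest level was in Sham2 (x axis, % of tested genes, number tested in brackets), with all genes tested in grey and as the dotted line at 23.7%. NF-kB target genes reach 75.0% and inflammasome genes 20.0%.

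Without Sham2, 104 of these genes were tested, 76 positive and 28 negative, with a median of 0.19 against 0.03 for all genes. The test called 0 of them with edgeR, and 6 (5.77%) had an unadjusted p under 0.05, against 3.39% of all genes then tested. The list of NF-kB targets went from a median of -0.36 to 0.77, with 13 of 15 positive. For Ccl3 and Cxcl1, 2 of these, both remaining sham libraries were listed at 0, so their fitted fold changes are no measure of size. Sham2 was highest for 12 of the 16 tested targets and for 7 of the 8 reactive astrocyte markers. Leaving out such a sham library, a choice made after seeing the data, raises these values by construction. Values of some cell type markers also shifted when Sham2 was left out, while others did not. The median of the reactive astrocyte markers went from -0.68 to 1.24, with 8 of 8 positive and 4 at an unadjusted p under 0.05 from edgeR, and the tested markers of neutrophils and monocytes and of border macrophages were positive in 6 of 6 each, against 4 of 7 and 5 of 6 with it. The median of microglia markers was 0.30 with Sham2 and 0.31 without it, with 13 of 15 positive in both. It went from 0.02 to 0.09 for endothelial cells and from -0.85 to -0.92 for hippocampal neurons. For red blood cells it went from 0.38 to 0.85, for striatal neurons from 3.74 to 4.05, and for choroid plexus from -0.39 to -0.95. The part of these cell types in the values of the NF-kB targets was not tested. The 6 genes with an unadjusted p under 0.05, named after their values were seen, were Zfp36, Tnfrsf12a, Lcn2, Ccl2, Ccl3 and Traf3. Zfp36, which encodes tristetraprolin, a protein that destroys cytokine mRNAs, stood at 3.75 and 3.88 CPM in Sham1 and Sham3, 10.6, 9.32 and 7.64 CPM in TBI and 17.6 CPM in Sham2. Tnfrsf12a, the receptor of TWEAK, stood at 4.40 and 5.50 CPM in those sham libraries, 24.1, 9.48 and 14.1 CPM in TBI and 96.8 CPM in Sham2. Lcn2, the secreted iron-carrier binder lipocalin-2, stood at 0.173 and 0.469 CPM, then 6.71, 8.22 and 1.35 CPM in TBI and 15.3 CPM in Sham2. For these 3 genes, and for Ccl2, each TBI library lay above Sham1 and Sham3 and below Sham2. All 3 TBI libraries lay above Sham1 and Sham3 for 10.1% of all genes tested. A p taken without Sham2 picks such genes, so their order over Sham1, Sham3 and TBI is no separate result.

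The chemokine Ccl2 stood at 0.123, 12.7 and 0.0 CPM in sham and 3.01, 1.55 and 0.365 CPM in TBI. Ccl3 stood at 0.0, 2.22 and 0.0 CPM in sham and 0.955, 1.04 and 0.0 CPM in TBI. In both, as in Il1rn, Sham2 was highest, TBI1 and TBI2 followed, and Sham1, Sham3 and TBI3 were lower. Of the lower libraries of Ccl2, TBI3 was the highest.

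**Figure D5:**
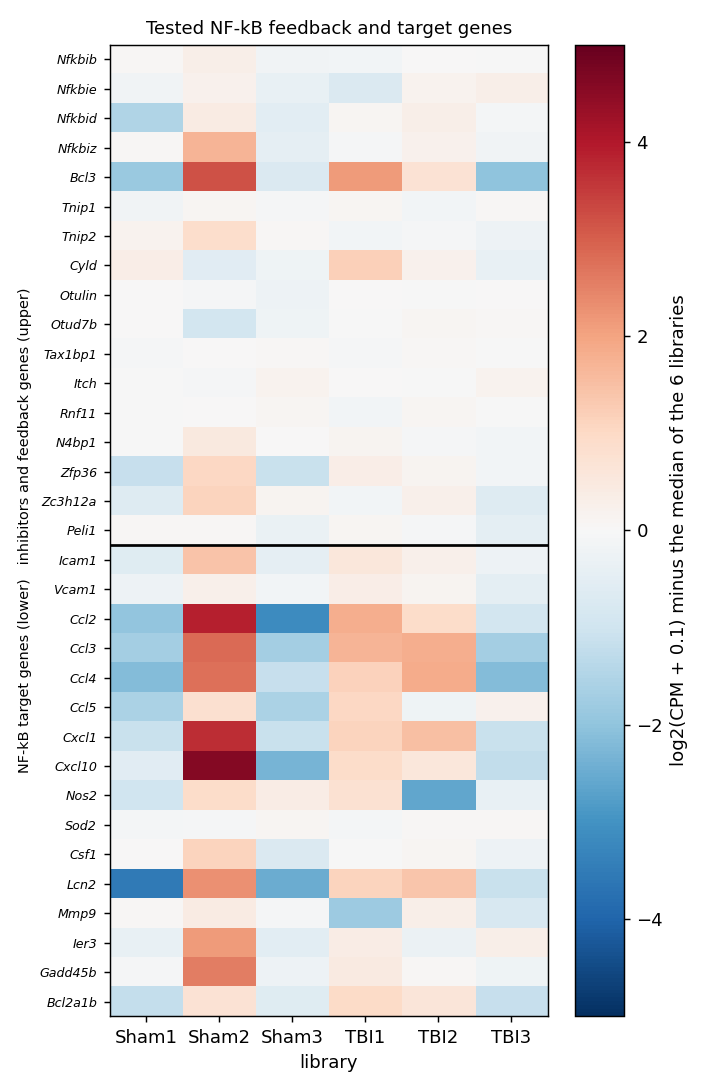
Tested NF-kB inhibitors and feedback genes (upper block) and NF-kB target genes (lower block) in each library, coloured by log2(CPM + 0.1) minus the median of the 6 libraries. The Sham2 column is the reddest for 12 of the 16 target genes, and TBI1 and TBI2 are redder than TBI3 for Ccl2, Ccl3, Ccl4, Cxcl1 and Lcn2.

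For 4 of the genes the 3 tested genes with the most similar pattern over the 6 libraries were taken by the Pearson correlation of log2 CPM, as a description. The points share libraries, and with 18795 genes and 6 points such values describe likeness only. For Il1a they were Fbxo16 (r = 0.996), Mov10 and Adamts13. For Il1b they were Dpm2 (r = 0.997), Snhg17 and Tgm2, and for Tnf those given here are Cxcl1 (r = 0.996) and Tshb. These 8 genes had their highest level in Sham2, apart from Fbxo16, whose highest was in TBI1. For Nfkbia they were Mocs1 (r = 0.991), Aspdh and Tango2, whose levels were lowest in Sham1.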

How the data were processed

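RNA-seq of hippocampus from 3 sham and 3 TBI mice was analysed from the per-gene tables, with groups taken from the sample labels. The authors used FastQC for read quality, HISAT2 for alignment to GRCm38 and StringTie for quantification. They deposited estimated counts (expected counts) as whole numbers, not normalized, for each gene of a library. Versions of these tools, the annotation, strandedness and how StringTie output became counts are not given in the sources used here. Low values pile up at multiples of 4 (4 occurs 5109 times, 3 occurs 2325 times), so counting errors and detection floors were not computed. Totals were 31630936 to 41771872.

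Symbols, exon lengths and coordinates came from GENCODE vM21 (52403 of 52550 identifiers matched), and promoters from RefSeq on GRCm38.p6. R 4.3.3 with edgeR 4.0.16 was used: filterByExpr by group, TMM, quasi-likelihood test and Benjamini-Hochberg adjustment over 18795 genes. A call needed an unadjusted p below 0.05, an adjusted p below 0.1 and more than 1.5-fold change in either direction. Standard errors were derived from the quasi-likelihood F statistic, and intervals from the moderated degrees of freedom. DESeq2 1.42.0, the tool of the authors, other scalings, filters, dispersions and thresholds, counts divided by 4, each library left out and a replicate block were alternatives. P-values measure the spread between 3 mice per group.

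The members and lists were chosen with earlier results of these data known, and no set test was run. Beside the members, named genes were those with the smallest p in each direction or an unadjusted p under 0.05 in each list, the marker of each list with the highest mean CPM over the 6 libraries, not scaled by length, and the 3 most similar genes of Il1a, Il1b, Tnf and Nfkbia, of which some are not reported here. Il33 and the other single markers named were chosen after their values were seen. The lists of endothelial cells (180 to 242 CPM in sham, 229 to 244 CPM in TBI; highest Flt1), border macrophages (14.6 to 30.2 and 21.9 to 28.4 CPM; Mrc1), red blood cells (126 to 416 and 117 to 601 CPM; Hbb-bs) and choroid plexus (50.1 to 2060 and 239 to 2350 CPM; Ttr) are given as summed levels. The genes with the highest mean CPM in the other lists named here were Csf3r for neutrophils and monocytes, Calb1 for hippocampal and Ppp1r1b for striatal neurons.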

Additional observations from a re-analysis of the deposited data

How the results depend on the processing

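Of 146 alternative log2 fold changes of the 10 genes, 134 kept their direction, 12 reversed and 0 were called. Other tools, scalings, filters, dispersions and the count scale reversed 0 of 72, so direction turned on libraries and the block. With 1 library left out, Il1a ran from -0.899 without TBI1 to 0.887 without Sham2 (0.486 without TBI3), Il1b from -1.719 without Sham3 to 1.487 without Sham2, Tnfrsf1a from -0.724 without TBI1 to 1.017 without Sham2 (0.017 without TBI3), Tnfrsf1b from -0.243 without TBI1 to 0.618 without Sham2, and Nfkbia from -0.065 without Sham1 to 0.40 without Sham2. With both Sham2 and TBI1 left out, a choice made after seeing the data, it was 0.084 for Il1a, 1.582 for Il1b, 0.055 for Il1r1 and 0.592 for Tnfrsf1a. No value was given for Tnf and Il1rn where a group was left at 0.

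Over all genes edgeR called 0. DESeq2 called 46 with its defaults and 50 on the genes kept by filterByExpr. With 1 library left out the counts ran from 35 to 322 for DESeq2, lowest without Sham1 and highest without TBI2 (63 without Sham2, 122 without Sham3), and from 0 to 1 for edgeR (1 without TBI1). Without both Sham2 and TBI1 they were 96 and 3. Members and pathway genes called stayed at 0 in each alternative run for them. Without Sham2, also chosen after seeing the data, 6 of the 10 genes kept their place in the order per length. The causes were not tested.

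Same-numbered sham and TBI libraries deviated together with r = -0.0996, -0.065 and 0.153, and differently numbered ones with r from -0.182 to 0.21. With 3 libraries per group, some of them standing apart, this cannot tell whether same-numbered libraries shared a batch. The sample labels used here give them only a number in common. With the replicate block Tnfrsf1a was 0.055, reversed, Il1b was -0.002 and Il1a -0.79, Il1r1 reached an unadjusted p of 0.0497 from edgeR, and 0 genes were called. The low counts of Tnf and Il1rn are the least certain of the 10.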
